A study of Mus musculus with 8 samples.

Results

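Glycolysis and hypoxia response genes were followed in mesenchymal stem cells of mouse bone marrow exposed to ellagic acid. The 38 gene symbols cover glucose uptake, the steps from glucose to lactate and the kinases that inactivate pyruvate dehydrogenase. They also cover the oxygen-sensing HIF regulators and a few classical hypoxia targets. A gene was taken when its symbol in the deposited table equalled a listed one, which gave 39 of 21899 table rows, because Aldoa stands there under a pair of gene IDs. Of these 39 rows, 28 belong to the glycolysis side and 11 to the hypoxia side. The cells came from the femur. The EA group was given 10 µM ellagic acid, a plant polyphenol, for 48 h, and the control group the same dose of the solvent DMSO for the same time. Each group had 4 poly(A) RNA libraries, numbered 1 to 4. Strain, age, oxygen level and culture glucose are not stated in the labels, and neither is whether the libraries came from separate animals or cultures. All p-values therefore refer to the variation among these 8 libraries alone, and that variation may be technical.

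Glycolysis converts glucose to pyruvate in the cytosol with a small yield of ATP, and lactate dehydrogenase returns pyruvate to lactate when mitochondria do not take it up. When oxygen is low, prolyl hydroxylases of the Egln family stop marking HIF alpha subunits for degradation, and the stabilised factor raises transcription of glucose transporters, most glycolytic enzymes, Pdk1 and genes such as Car9 and Angptl4. HIF alpha is controlled mainly at the protein level, which RNA sequencing does not measure. Marrow stromal cells reside in a tissue of low oxygen tension and are known to draw much of their energy from glycolysis.

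Total counts ranged from 14112519 to 17390200 reads in the EA libraries and from 14654286 to 16637984 in the control libraries. Principal component 1 separated the groups and explained 84.6% of the variance. Control library 4 stood apart from the other controls on component 2. Composition factors by TMM were 0.878 to 0.885 in EA and 1.13 to 1.14 in control. Values given as CPM below are counts relative to the TMM-adjusted library total, whereas FPKM values are per gene length and library total. The summed level of 12 mesenchymal stromal markers was 11005 to 11626 CPM in EA and 7692 to 8734 CPM in control. Of 11 tested markers 6 were higher and 2 lower, beside 33.1% higher and 34.2% lower of all tested genes. Thy1, one of these markers, had too few reads to be tested. Summed markers of other marrow cells were 60.0 to 64.2 CPM in EA and 60.4 to 75.4 CPM in control for 10 macrophage and myeloid genes, and did not exceed 8.04 CPM in any library for adipocyte, erythroid or endothelial genes. Mitochondrially encoded genes took 2.32% to 2.73% of reads in EA and 1.80% to 2.22% in control. The part of these shifts in the results was not tested. In bulk RNA, fewer cells of a type and less RNA per cell cannot be told apart.

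The comparison of EA with control asked how glucose metabolism transcripts and their oxygen-sensing regulators differed after 48 h of ellagic acid. The glucose transporter Slc2a1 rose 3.05-fold, and Hif1a with 2 prolyl hydroxylase genes rose 1.17-fold to 1.63-fold, the smallest of these, Egln2, turning lower when libraries are scaled by their totals alone. Enzymes of the pathway split with TMM scaling: Tpi1 and Pgk1 fell while Aldoa, Pgam1 and Hk2 rose. On library totals Tpi1 and Pgk1 were still lower. Pgam1, Aldoa and Hk2 were not past the threshold there (edgeR adjusted p = 0.916, 0.605 and 0.0993). The hypoxia targets Angptl4, Car9 and Ndrg1 and the kinase Pdk1 fell, by 1.41-fold to 3.21-fold. Of 33 tested rows, 11 were higher, 12 lower and 10 not past an adjusted p of 0.05 (quasi-likelihood F test in edgeR, Benjamini-Hochberg adjusted over 11777 tested genes). The background in this comparison was high, with 67.2% of all tested genes called, 33.1% higher and 34.2% lower. The share of called members was close to that background and is no result about these genes. The groups did not overlap in CPM for 21 of the 33 rows, beside 60.6% of all tested genes. The median log2 fold change was -0.08 over the members and -0.02 over all tested genes.

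The choice of scaling moved these counts. With library totals and no composition factors the median over all tested genes fell to -0.38, with 16.5% called higher and 61.1% lower. The members then counted 4 higher and 22 lower, with a median of -0.44. Directions that turn under library totals are named with each gene, and ratios between genes within a library do not depend on the scaling.

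**Figure D1:**
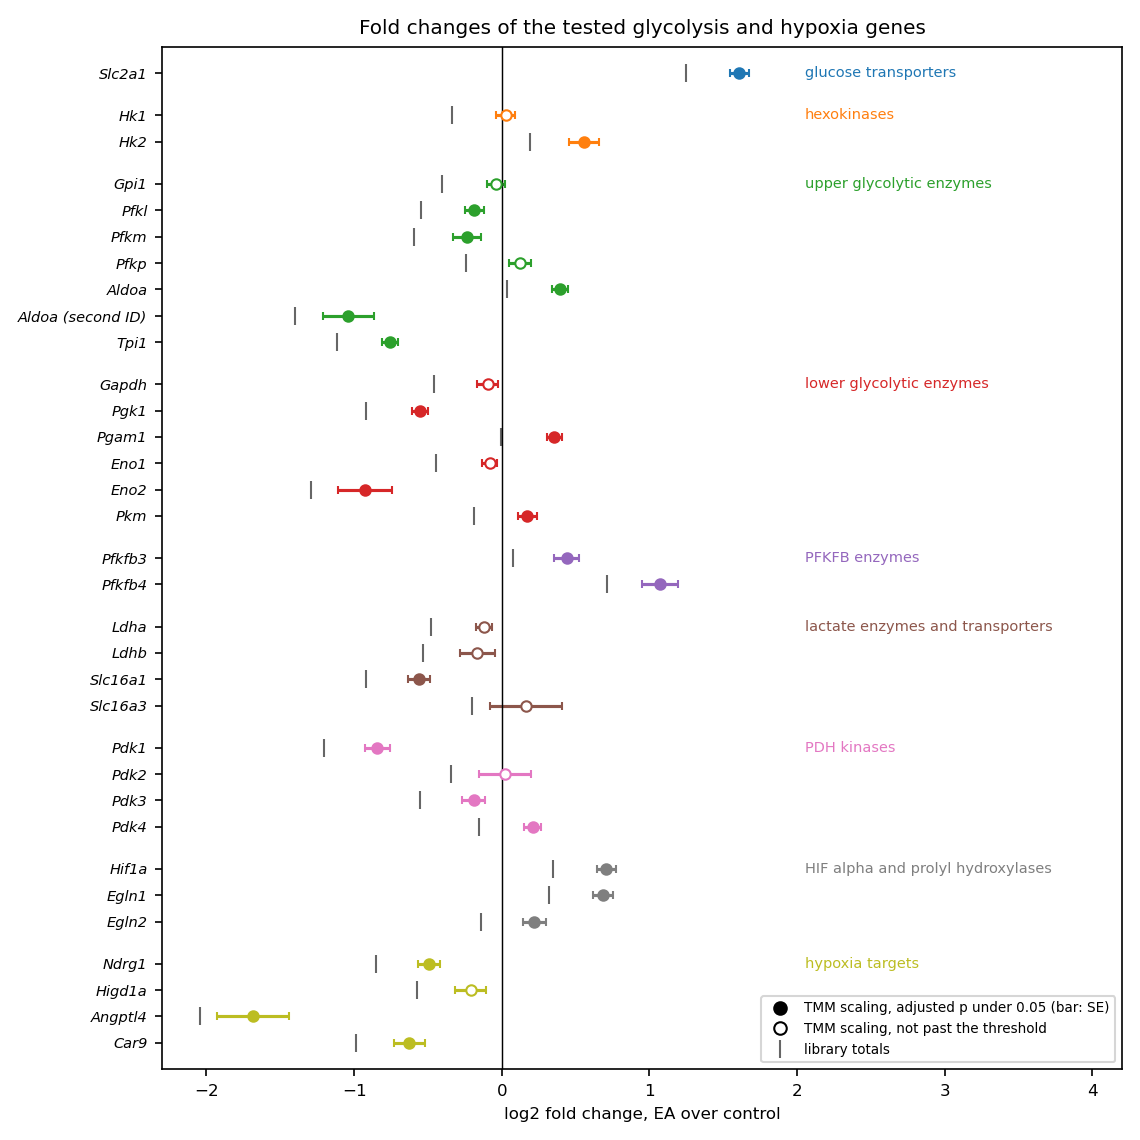
Log2 fold change, EA over control, of the 33 tested rows grouped by role. Points are edgeR estimates with TMM scaling and bars their SE; filled points passed an adjusted p of 0.05, and grey ticks give the estimate with library totals. Slc2a1 lies farthest to the right at 1.61 and Angptl4 farthest to the left at -1.68, and Hk1, Pfkp, Pgam1, Pkm, Slc16a3, Pdk2, Pdk4 and Egln2 lie right of 0 with TMM scaling and left of it with library totals.

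Promoter sequence is shown for 5 called members with a single listed start, 2 that rose and 3 that fell, since HIF is known to bind a short core motif close to many genes of this kind. All 5 windows hold the motif, so they do not stand for all members. Tpi1 and Eno2, both called lower, and Gpi1, not called, each have 1 listed start without it and are not shown. Each window holds the 250 bases before the transcription start on the gene's strand, from RefSeq on build GRCm38.p6, which is older than the GRCm39 build of the counts. Capitals mark ACGTG or GCGTG, the letters of the HIF core, on either strand, so that CACGT and CACGC are matches on the opposite strand. Slc2a1 and Pfkfb4 were higher in EA, and Pgk1, Slc16a1 and Car9 lower.
Slc2a1, chr4:119108495-119108744, plus strand: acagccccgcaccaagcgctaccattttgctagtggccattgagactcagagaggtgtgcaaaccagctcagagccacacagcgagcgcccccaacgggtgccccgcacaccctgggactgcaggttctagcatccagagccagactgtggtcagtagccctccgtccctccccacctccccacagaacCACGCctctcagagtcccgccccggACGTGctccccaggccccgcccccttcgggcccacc
Pfkfb4, chr9:108991652-108991901, plus strand: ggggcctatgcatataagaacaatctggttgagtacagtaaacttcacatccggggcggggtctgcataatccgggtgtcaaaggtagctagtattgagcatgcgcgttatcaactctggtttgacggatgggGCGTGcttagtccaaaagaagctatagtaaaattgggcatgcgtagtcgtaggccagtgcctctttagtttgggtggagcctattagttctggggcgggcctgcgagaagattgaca
Pgk1, chrX:106186850-106187099, plus strand: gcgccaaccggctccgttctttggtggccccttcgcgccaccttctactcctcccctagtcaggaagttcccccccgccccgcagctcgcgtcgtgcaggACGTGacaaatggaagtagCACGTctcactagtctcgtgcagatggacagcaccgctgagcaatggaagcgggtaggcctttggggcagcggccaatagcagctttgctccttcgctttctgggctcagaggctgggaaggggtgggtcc
Slc16a1, chr3:104638414-104638663, plus strand: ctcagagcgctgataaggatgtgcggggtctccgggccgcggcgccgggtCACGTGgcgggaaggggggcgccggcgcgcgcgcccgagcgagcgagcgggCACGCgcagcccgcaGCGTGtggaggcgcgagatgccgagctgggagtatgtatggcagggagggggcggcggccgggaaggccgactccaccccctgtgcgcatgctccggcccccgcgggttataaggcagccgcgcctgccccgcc
Car9, chr4:43506776-43507025, plus strand: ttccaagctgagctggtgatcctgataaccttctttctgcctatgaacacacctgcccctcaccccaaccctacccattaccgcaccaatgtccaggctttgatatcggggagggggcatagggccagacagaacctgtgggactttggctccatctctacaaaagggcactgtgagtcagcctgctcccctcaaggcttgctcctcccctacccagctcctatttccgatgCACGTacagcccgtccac

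The Slc2a1 window held 2 matches, the nearer of which began 36 bases before the start. Pfkfb4 had 1 match, beginning 117 bases before the start, and the fallen gene Car9 also had 1, beginning 18 bases before it. Pgk1 held 2 matches and Slc16a1 held 4, among them CACGTG, the E-box read by MYC and by the clock factors, which counts as a match on both strands. RefSeq windows were found for 34 of the 38 symbols. The core was present in at least 1 window of 31 of these 34 genes, against 41.5% of 27025 genes in the same table. Among genes with 1 listed start it was present in 20 of 23 members and in 37.9% of all genes. By direction it stood in 11 of 11 members called higher, 7 of 9 called lower, 9 of 10 tested and not called and 4 of 4 not tested. The core was thus common in members that rose and in members that fell. CACGTG was present in 6 of 34 members and 6.86% of all genes. Windows were not matched for base composition, and a match in letters is a description and not a site.

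Glucose enters these cells through facilitated transporters, of which Slc2a1 (GLUT1, chromosome 4, 118965908 to 118995180, plus strand, GRCm39) is the basal form. Slc2a1 had 242, 235, 231 and 260 CPM in the EA libraries, against 84.6, 83.1, 75.7 and 73.8 CPM in the control libraries. The lowest EA library was well above the highest control library, and the log2 fold change was 1.61 ± 0.06 (SE; edgeR adjusted p = 5.09e-15). With library totals it was still 2.37-fold higher. Slc2a3, the high-affinity neuronal transporter, was close to absent, with 0 reads over the EA libraries and 3 over the control libraries.

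Hexokinases trap glucose by phosphorylation. Hk2, the inducible isozyme, had 120, 115, 144 and 172 CPM in EA, against 89.2, 93.0, 93.4 and 99.7 CPM in control. All EA libraries lay above all control libraries, with EA library 4 the highest, and Hk2 rose 1.47-fold (edgeR adjusted p = 0.000303). With library totals the rise was 1.14-fold and no longer past the threshold (edgeR adjusted p = 0.0993). The constitutive Hk1 averaged 206 ± 10.7 CPM in EA and 202 ± 16.0 CPM in control (SD, n = 4 each) and was not called, and on library totals its direction turned to 1.26-fold lower. Hk2 made up 48.6 ± 4.37% of the hexokinase FPKM in EA and 39.9 ± 2.76% in control.

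The upper steps carry fructose 6-phosphate to the triose phosphates. Aldoa, the main aldolase, had 592, 608, 608 and 603 CPM in EA, against 500, 458, 458 and 419 CPM in control. The groups did not overlap and Aldoa rose 1.31-fold (edgeR adjusted p = 2.68e-06), a difference that shrank to 1.02-fold with library totals (edgeR adjusted p = 0.605). Tpi1, which interconverts the triose phosphates, had 369, 371, 358 and 378 CPM in EA, against 645, 629, 656 and 562 CPM in control. EA libraries were tightly grouped below all controls, and Tpi1 fell with a log2 fold change of -0.76 ± 0.06 (SE; edgeR adjusted p = 1.9e-10). Tpi1 shares its locus with Spsb2, and since the strand setting of the counting is not given, reads of overlapping genes cannot be told apart.

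The second Aldoa ID, ENSMUSG00000114515, is annotated on chromosome 7 from 126399962 to 126408280, next to the main gene at 126394406 to 126399923, both on the minus strand. It had 4.82, 3.60, 2.79 and 5.19 CPM in EA, against 8.43, 8.72, 7.34 and 9.06 CPM in control. All EA libraries were below all controls, and this ID was 2.06-fold lower (edgeR adjusted p = 2.11e-05), opposite in direction to the main ID. It carries few of the Aldoa reads, and reads of the pair may be shared. The phosphofructokinases, which commit sugar to the pathway, changed little with TMM scaling. Pfkl was 1.14-fold and Pfkm 1.18-fold lower (edgeR adjusted p = 0.0158 and 0.0346), with overlapping libraries, and both calls depended on single libraries. With library totals Pfkl was 1.46-fold and Pfkm 1.51-fold lower (edgeR adjusted p = 2.29e-07 and 1.83e-05). Pfkp averaged 90.0 ± 9.14 CPM in EA and 82.7 ± 6.60 CPM in control, and Gpi1 averaged 235 ± 12.2 CPM in EA and 242 ± 16.4 CPM in control (SD, n = 4 each), neither past the threshold. With library totals Pfkp turned to 1.18-fold lower (edgeR adjusted p = 0.00633), and Gpi1 was 1.32-fold lower (edgeR adjusted p = 4.94e-06). The brain aldolase Aldoc was not tested, with 6 reads in EA and 18 in control.

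**Figure D2:**
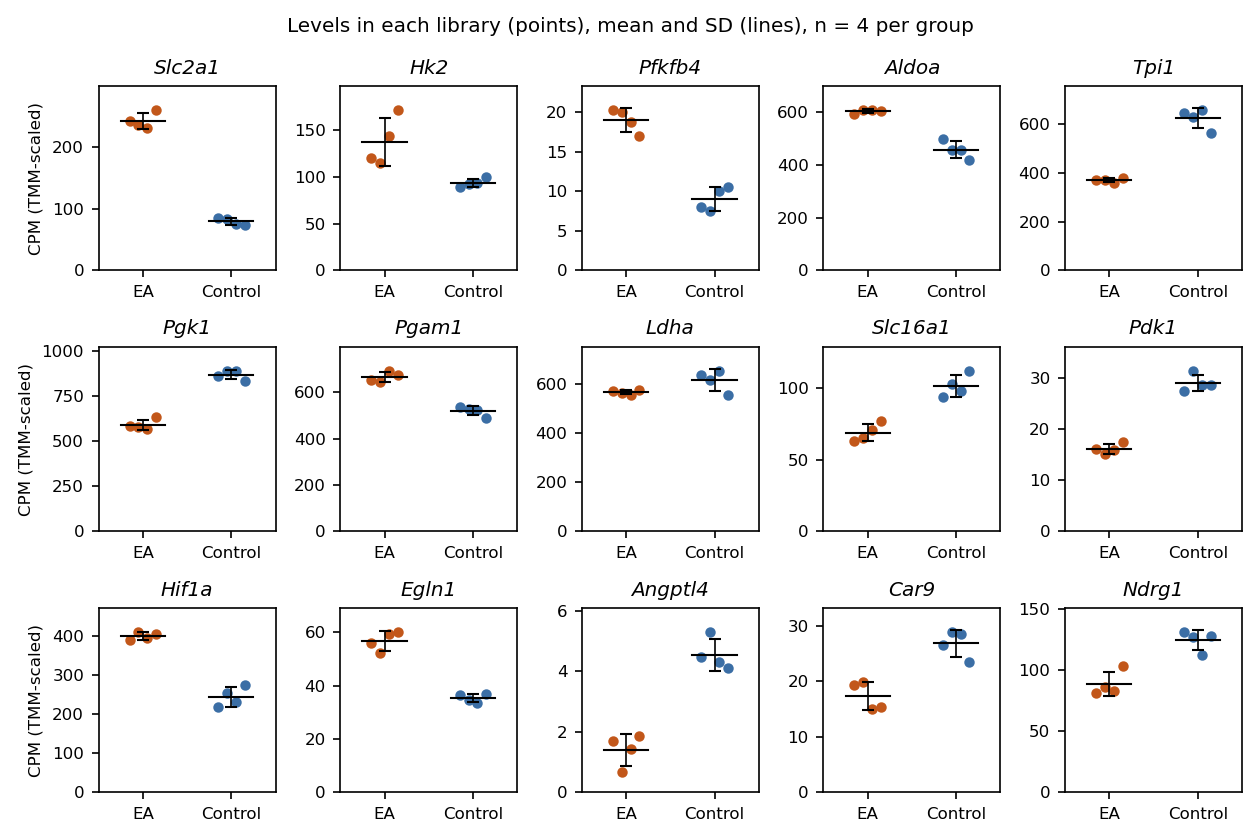
CPM after TMM scaling in each library for 15 members, with EA at the left and control at the right of each panel; points are libraries, lines the mean and SD of 4. The groups are separate in every panel except that of Ldha, with EA above control for Slc2a1, Hk2, Pfkfb4, Aldoa, Pgam1, Hif1a and Egln1. Of these, Aldoa and Pgam1 are about level with control when library totals are used, and Hk2 is not past the threshold there.

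The lower steps yield ATP and pyruvate. Pgk1, the ATP-making phosphoglycerate kinase on chromosome X, had 584, 580, 568 and 631 CPM in EA, against 863, 889, 887 and 835 CPM in control. EA libraries lay below all controls, and Pgk1 was 1.47-fold lower (edgeR adjusted p = 8.31e-09) and 1.89-fold lower with library totals. Its downstream neighbour Pgam1, phosphoglycerate mutase, had 652, 642, 691 and 673 CPM in EA, against 534, 527, 525 and 490 CPM in control. Here EA lay above control by 1.28-fold (edgeR adjusted p = 3.64e-06), whereas on library totals the log2 fold change was -0.0063, or no visible change. These neighbouring enzymes therefore moved apart under either scaling.

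Eno1, the general enolase, had 595, 598, 597 and 622 CPM in EA, against 666, 635, 632 and 620 CPM in control, with EA library 4 just above the lowest control. Eno1 was not called with TMM scaling (edgeR adjusted p = 0.149) but was 1.36-fold lower with library totals (edgeR adjusted p = 7.36e-08). Eno2, the neuronal form, was scarce, with 3.70, 2.28, 2.92 and 3.27 CPM in EA, against 5.96, 4.75, 6.55 and 5.81 CPM in control. The groups did not overlap and Eno2 was 1.90-fold lower (edgeR adjusted p = 0.000145). Pkm, pyruvate kinase of the last step, had 1053, 987, 1068 and 1003 CPM in EA, against 962, 917, 972 and 793 CPM in control. The gap between the lowest EA and the highest control library was small, the rise of 1.13-fold was close to the threshold (edgeR adjusted p = 0.0173), it did not hold without EA library 1 or 3, and it turned to 1.14-fold lower with library totals. Gapdh averaged 303 ± 28.4 CPM in EA and 323 ± 26.9 CPM in control (SD, n = 4 each) and was not called. With library totals Gapdh was 1.37-fold lower (edgeR adjusted p = 8.62e-06). Gapdh, Eno1, Pgk1 and Ldha have near-identical processed copies in the mouse genome, and how reads shared with those copies were counted is not given.

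Per gene length the order of the enzymes differed between the groups. The deposited lengths, such as 1982 bases for Pgam1, 4133 for Gapdh and 5379 for Eno1, shape the order within a group. They do not alter the fold of a gene between groups. In EA the highest was Pgam1 with 296 ± 9.88 FPKM, followed by Pgk1 with 232 ± 10.1 FPKM. Aldoa at 183 ± 2.50 FPKM and Pkm at 181 ± 7.19 FPKM came next and overlapped between libraries, before Ldha at 151 ± 1.89, Tpi1 at 118 ± 2.34 and Eno1 at 98.9 ± 1.78 FPKM. In control the highest was Pgk1 with 439 ± 14.8 FPKM, followed by Pgam1 with 297 ± 12.0 FPKM and Tpi1 with 257 ± 18.3 FPKM. Ldha at 210 ± 15.8, Pkm at 207 ± 19.4 and Aldoa at 179 ± 12.9 FPKM overlapped there, above Eno1 at 135 ± 4.07 FPKM (SD, n = 4 throughout). The FPKM ratio of Pgk1 to Pgam1 was 0.787 ± 0.0429 in EA and 1.48 ± 0.0356 in control, and that of Tpi1 to Aldoa was 0.647 ± 0.0184 in EA and 1.44 ± 0.0626 in control. Neither ratio overlapped between the groups, and both were chosen after their values were seen.

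The bifunctional Pfkfb enzymes make and remove the sugar phosphate that activates phosphofructokinase, and both tested genes rose. Pfkfb4 had 20.2, 20.0, 18.8 and 17.0 CPM in EA, against 8.02, 7.45, 10.0 and 10.5 CPM in control. Its groups were widely separated, with a log2 fold change of 1.07 ± 0.12 (SE; edgeR adjusted p = 1.21e-07) and a 1.64-fold rise with library totals. Pfkfb3, the form with high kinase activity, had 31.8, 33.6, 38.3 and 39.7 CPM in EA, against 25.9, 28.9, 25.2 and 26.1 CPM in control. It rose 1.36-fold without overlap (edgeR adjusted p = 0.000133), but by 1.05-fold, past no threshold, with library totals (edgeR adjusted p = 0.421). Pfkfb4 took 45.2 ± 4.47% of their summed FPKM in EA and 34.4 ± 4.76% in control (SD, n = 4 each).

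At the branch point of pyruvate, Ldha, which reduces pyruvate to lactate, had 572, 562, 555 and 574 CPM in EA, against 637, 616, 651 and 553 CPM in control. Control library 4 lay below all EA libraries while the other controls lay above them, and Ldha was not called (edgeR adjusted p = 0.065). Without control library 4 it passed the threshold, as did Gapdh and Ldhb, all in the lower direction. With library totals and all libraries Ldha was 1.40-fold lower (edgeR adjusted p = 1.72e-07). Slc16a1, the monocarboxylate transporter that carries lactate across the membrane, had 62.9, 65.5, 70.6 and 76.7 CPM in EA, against 94.0, 103, 98.0 and 112 CPM in control. Every EA library lay below every control and Slc16a1 was 1.47-fold lower (edgeR adjusted p = 8.35e-07). The exporter Slc16a3 was low, at 2.32 ± 0.230 CPM in EA and 2.07 ± 0.571 CPM in control, and Ldhb averaged 21.3 ± 2.12 CPM in EA and 23.9 ± 4.40 CPM in control (SD, n = 4 each), neither past the threshold. With library totals Ldhb was 1.44-fold lower (edgeR adjusted p = 0.000614) and Slc16a3 turned to lower. It overlaps the strongly expressed Csnk1d, so that its few reads may not be its own. The FPKM ratio of the importer of glucose to the lactate carrier, Slc2a1 to Slc16a1, was 4.45 ± 0.314 in EA and 0.991 ± 0.126 in control, a pair also chosen after its values were seen.

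Pyruvate dehydrogenase kinases inactivate the mitochondrial complex that oxidises pyruvate, and their 4 genes did not move as a family. Pdk1, the form HIF is known to induce, had 16.1, 15.2, 15.9 and 17.5 CPM in EA, against 27.5, 31.4, 28.6 and 28.6 CPM in control. The groups were far apart and Pdk1 was 1.79-fold lower (edgeR adjusted p = 3.7e-08). Pdk4, the fasting- and glucocorticoid-induced form, had 411, 397, 402 and 347 CPM in EA, against 337, 330, 338 and 342 CPM in control. EA library 4 was just above the highest control, Pdk4 rose 1.16-fold (edgeR adjusted p = 0.00297), and it turned to 1.11-fold lower with library totals. Pdk3 was 1.14-fold lower with overlapping libraries (edgeR adjusted p = 0.0358), a call that was lost without EA library 1, 3 or 4 or control library 3 or 4. Pdk2 averaged 7.64 ± 1.01 CPM in EA and 7.56 ± 1.92 CPM in control, was not called, and turned to 1.27-fold lower with library totals. Per length, Pdk4 accounted for most kinase transcript in both groups, at 84.9 ± 1.23% of the family's FPKM in EA and 80.4 ± 0.277% in control, while Pdk1 held 1.60 ± 0.201% in EA and 3.13 ± 0.228% in control (SD, n = 4 each).

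On the regulatory side, Hif1a encodes the oxygen-labile subunit that pairs with Arnt to drive the hypoxia program. Hif1a (chromosome 12, 73948149 to 73994304, plus strand) had 390, 411, 396 and 407 CPM in EA, against 218, 255, 232 and 276 CPM in control. EA libraries were close together above a wider spread of controls, with a log2 fold change of 0.71 ± 0.06 (SE; edgeR adjusted p = 5.49e-09) and a rise of 1.27-fold with library totals. Egln1, the main oxygen-sensing prolyl hydroxylase and itself a HIF target, had 55.8, 52.0, 59.2 and 60.0 CPM in EA, against 36.4, 34.4, 33.6 and 36.8 CPM in control. It rose 1.61-fold without overlap (edgeR adjusted p = 3.28e-08) and 1.25-fold with library totals. Egln2, a hydroxylase not induced by HIF, had 49.4, 45.8, 41.9 and 45.2 CPM in EA, against 41.8, 37.6, 41.8 and 35.0 CPM in control. EA library 3 barely exceeded the highest controls, and the 1.17-fold rise (edgeR adjusted p = 0.0162) was lost without EA library 1 and turned to 1.10-fold lower with library totals.

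The other 2 HIF regulators were too scarce to test. Epas1, which encodes the HIF-2 alpha subunit, had 0.482, 0.662, 0.325 and 0.284 CPM in EA, against 0.974, 0.782, 0.395 and 0.213 CPM in control. Egln3, the most strongly HIF-induced hydroxylase in many cell types, had 0.643, 0.147, 0.390 and 0.142 CPM in EA, against 0.401, 0.301, 0.565 and 0.586 CPM in control. Both overlapped between the groups. Summed over libraries Epas1 had 24 reads in EA and 41 in control, and Egln3 had 18 in EA and 33 in control. The control over EA ratios on library totals were 1.73 for Epas1 (95% exact interval 1.02 to 2.99) and 1.85 for Egln3 (1.01 to 3.50). Such intervals cover counting error only, and on library totals 61.1% of all tested genes were called lower. With TMM scaling Epas1 averaged 0.438 ± 0.172 CPM in EA and 0.591 ± 0.349 CPM in control. Egln3 averaged 0.330 ± 0.238 CPM in EA and 0.463 ± 0.136 CPM in control (SD, n = 4 each). No interval was computed on that scale.

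Of the 6 hypoxia targets among the members, 3 fell, 1 missed the threshold and 2 were not tested. Angptl4, a secreted inhibitor of lipoprotein lipase, had 1.69, 0.662, 1.43 and 1.85 CPM in EA, against 4.47, 5.29, 4.29 and 4.10 CPM in control. The groups were far apart at a low level, with a log2 fold change of -1.68 ± 0.24 (SE; edgeR adjusted p = 3.98e-06). Car9, the membrane carbonic anhydrase used as a hypoxia marker, had 19.3, 19.9, 15.1 and 15.4 CPM in EA, against 26.5, 28.9, 28.5 and 23.5 CPM in control, and was 1.55-fold lower without overlap (edgeR adjusted p = 2.46e-05). Ndrg1, a stress-induced gene, ranged from 81.8 to 104 CPM in EA and from 113 to 131 CPM in control and was 1.41-fold lower (edgeR adjusted p = 6.31e-06). Higd1a, a mitochondrial protein gene induced by hypoxia, averaged 14.7 ± 0.827 CPM in EA and 17.0 ± 1.93 CPM in control (SD, n = 4 each). Its groups did not overlap, and it missed the threshold (edgeR adjusted p = 0.0794). With library totals Higd1a was 1.49-fold lower (edgeR adjusted p = 5.24e-05). Ankrd37 had 4 reads in EA and 35 in control, a control over EA ratio of 8.85 (95% exact interval 3.16 to 34.3) that was not tested across libraries. Ankrd37 overlaps Ufsp2, whose reads cannot be set apart. Adm, which encodes the peptide adrenomedullin, had 3 reads in EA and 1 in control, at or under the 3 counts taken as a floor.

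The glycolytic enzymes were then set against the HIF regulators. Of 17 tested enzyme rows, 4 were higher (23.5%) and 6 lower (35.3%), near the 33.1% and 34.2% of all tested genes, with a median log2 fold change of -0.10. Of 5 regulators, 3 were tested and all 3 were higher, with a median of 0.68, beside -0.02 for all tested genes. With library totals the counts were 0 higher and 14 lower for the enzymes and 2 higher and 0 lower for the regulators, beside 16.5% higher and 61.1% lower of all tested genes. Of 6 hypoxia targets, 4 were tested, of which 0 were higher and 3 lower, with a median of -0.56, beside 34.2% lower of all tested genes; with library totals all 4 were lower, beside 61.1%. The summed FPKM of the enzymes was 1439, 1419, 1446 and 1474 in the EA libraries, against 2031, 1996, 2048 and 1814 in the control libraries. The summed FPKM of the regulators was 87.8, 88.9, 87.5 and 89.5 in EA, against 70.5, 75.5, 73.1 and 78.8 in control. On this scale, which rests on library totals, enzymes were lower and regulators higher in every EA library than in any control. With each sum divided by the TMM factor of its library, a step added after the data were seen, the enzymes overlapped, at 1638 ± 29.7 in EA and 1739 ± 89.2 in control, with control library 4 below every EA library. The regulators remained separate on that scale, at 100.3 ± 1.35 in EA and 65.7 ± 3.28 in control (SD, n = 4 each). The ratio of enzymes to regulators, which does not depend on the scaling, was 16.3 ± 0.255 in EA and 26.6 ± 2.57 in control (SD, n = 4 each), a log2 difference of -0.70. Pgk1 and Hif1a weigh most in the sums, and without them the log2 difference was -0.40, again with no overlap between the groups. As a share of all reads the enzymes took 0.491 ± 0.00789% in EA and 0.655 ± 0.0378% in control.

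**Figure D3:**
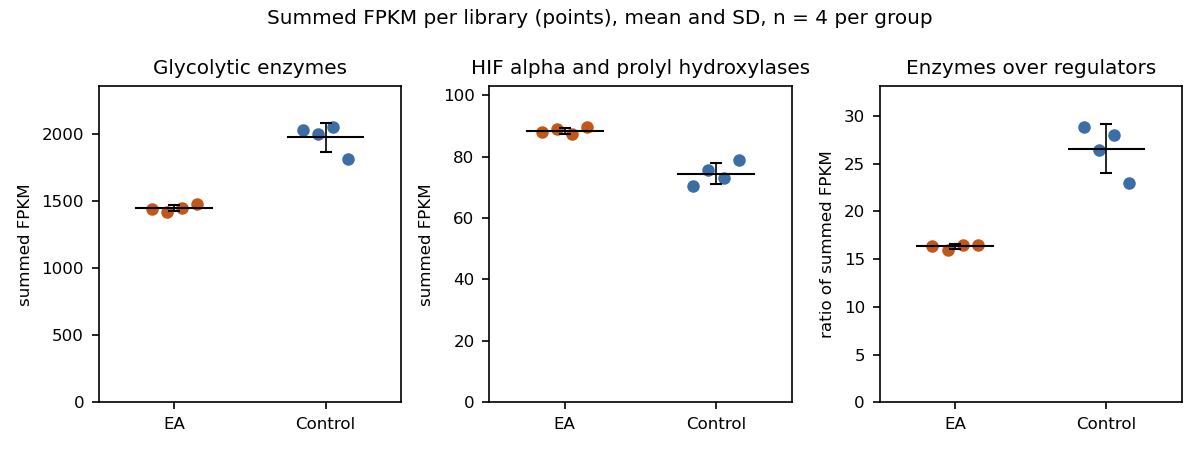
Summed FPKM of the glycolytic enzymes (left), of the HIF alpha and prolyl hydroxylase genes (middle) and their ratio (right) in each library, EA left of control in each panel; points are libraries, lines the mean and SD of 4. The sums rest on library totals, and the enzyme sums overlap once divided by TMM factors; the EA ratios sit between 16.0 and 16.5, below all control ratios, which run from 23.0 to 28.8.

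Ratios between genes of the same function were computed within each library for 12 of 15 pairs, the other 3 having too few reads. For 6 pairs the groups did not overlap, which gives p = 0.0286 in a two-sided exact permutation test, the smallest that the 70 assignments of 8 libraries allow, and 0.0571 after adjustment over the 12 pairs. No pair thus passed 0.05 after adjustment. The share over other gene pairs was not computed. Among single genes, 60.6% of all tested did not overlap in CPM, so separate groups are common in these data. The mean log2 ratio was higher in EA by 0.51 for Hk2 to Hk1, by 0.66 for Pfkfb4 to Pfkfb3 and by 0.76 for Slc16a3 to Slc16a1, with 4 of 4 EA libraries above all controls in each. It was lower in EA for Eno2 to Eno1 (-0.85), Pdk1 to Pdk2 (-0.89) and Egln2 to Egln1 (-0.46), with 4 of 4 EA libraries below all controls in each. With 1 added to each FPKM, the difference for the scarce Eno2 over Eno1 was -0.17. The other 6 pairs overlapped, among them Ldhb to Ldha, with a difference of -0.04, and Pfkm to Pfkl, with -0.04. Egln1 took 49.1 ± 2.83% of the hydroxylase FPKM in EA and 41.1 ± 2.70% in control (SD, n = 4 each).

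**Figure D4:**
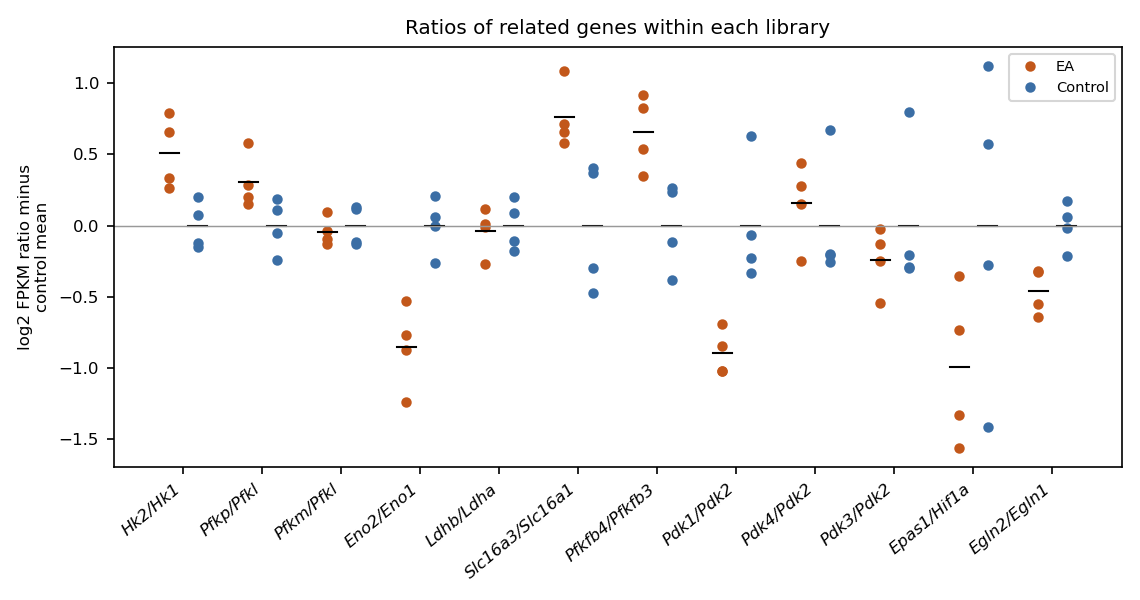
Log2 FPKM ratio of 12 gene pairs in each library, with the control mean of each pair set to 0; EA libraries stand left of control libraries, and black lines are group means of 4. In 6 pairs the libraries are separate between the groups, with Hk2/Hk1, Slc16a3/Slc16a1 and Pfkfb4/Pfkfb3 higher and Eno2/Eno1, Pdk1/Pdk2 and Egln2/Egln1 lower in EA. The share over other gene pairs was not computed.

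Genes of neighbouring pathways were read from the same fit, in which 33.1% of all tested genes were higher and 34.2% lower. With library totals these shares were 16.5% and 61.1%. The counts of each list below stand beside these shares. Of 12 further tested glycolysis genes, 3 were higher and 4 lower (median log2 fold change -0.14), or 2 higher and 8 lower with library totals. The muscle enolase Eno3 was 2.96-fold higher and Bsg, the chaperone of lactate transporters, 1.38-fold higher, the second shrinking to 1.07-fold on library totals. Slc2a6, a transporter of the glucose transporter family, was 4.16-fold lower, at 8.53 ± 0.625 CPM in EA and 35.5 ± 2.35 CPM in control (SD, n = 4 each). Tigar, a phosphatase that opposes phosphofructokinase activation, was 3.36-fold lower (largest edgeR adjusted p of these 4 genes, 8.31e-07).

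Among 13 other HIF pathway regulators, 3 were higher and 5 lower (median -0.10), or 1 higher and 9 lower with library totals. Cited2, which competes with HIF alpha for its coactivator, fell to 105 ± 13.4 CPM in EA, against 327 ± 53.2 CPM in control (SD, n = 4 each; 3.12-fold lower, edgeR adjusted p = 3.2e-07). Arnt2, a partner of HIF alpha in neural tissue, was 2.73-fold lower. Hif3a, a HIF alpha relative whose short forms oppose HIF, had 76 reads in EA and 2 in control. The ratio on library totals was 37.6, with a 95% exact interval of 10.1 to 316 that covers counting error only. Hif3a passed the count filter through the EA libraries alone and is counted among the 3 higher. Rbx1, a subunit of the ubiquitin ligase that removes HIF alpha, was 1.30-fold higher, or 1.01-fold with library totals.

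Of 31 other tested hypoxia targets, 14 were higher and 12 lower (median 0.15), beside 33.1% higher and 34.2% lower of all tested genes. With library totals 9 were higher and 16 lower (median -0.21). The clock-linked repressor Bhlhe41 had 108 ± 4.25 CPM in EA and 8.28 ± 0.890 CPM in control (SD, n = 4 each) and was 13.1-fold higher (edgeR adjusted p = 7.5e-19). Gys1, the muscle glycogen synthase, was 1.72-fold and Insig2, a brake on sterol synthesis, 1.49-fold lower.

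Downstream of pyruvate, 1 of 11 pyruvate entry genes was higher and 4 lower (median -0.06), or 0 higher and 11 lower with library totals. The phosphatase gene Pdp2, which reactivates pyruvate dehydrogenase against the Pdk kinases, was 3.78-fold lower, with 3.68 ± 0.825 CPM in EA and 13.9 ± 1.71 CPM in control (SD, n = 4 each; edgeR adjusted p = 1.07e-09). Dld, a shared subunit of the complex, was 1.25-fold lower. Pcx, pyruvate carboxylase, was 1.12-fold higher with overlapping libraries and lower with library totals. Of 17 citric acid cycle genes, 4 were higher and 3 lower (median -0.01), or 1 higher and 14 lower with library totals. Dlst rose 1.75-fold, Mdh1 1.20-fold with a turn to lower on library totals, and Fh1 and Sdhb were 1.29-fold and 1.14-fold lower.

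Side routes of glucose were mixed. In the pentose phosphate pathway 3 of 8 genes were higher and 3 lower (median 0.06), or 1 higher and 5 lower with library totals. H6pd, the form in the endoplasmic reticulum, rose 1.76-fold, and G6pdx rose 1.20-fold but was lower on library totals, while Rpia and Rpe of the sugar-interconverting branch were 1.63-fold and 1.46-fold lower. Of 9 gluconeogenesis and glycogen genes, 3 were higher and 3 lower (median 0.04), or 2 higher and 5 lower with library totals. Pck2, the mitochondrial phosphoenolpyruvate carboxykinase, fell to 91.5 ± 11.5 CPM in EA, against 231 ± 9.71 CPM in control (SD, n = 4 each; 2.53-fold lower, edgeR adjusted p = 1.74e-12). Ugp2 rose 1.46-fold, and Pygb was 1.24-fold lower. Of 13 upstream regulators, 4 were higher and 4 lower (median 0.03), or 3 higher and 9 lower with library totals. The glucose-sensing factor Mlxip rose 2.92-fold and Rheb, the activator of mTORC1, 1.86-fold. Myc, a driver of glycolytic gene transcription, was 1.95-fold lower and Prkaa2, a catalytic subunit of AMPK, 2.18-fold lower.

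**Figure D5:**
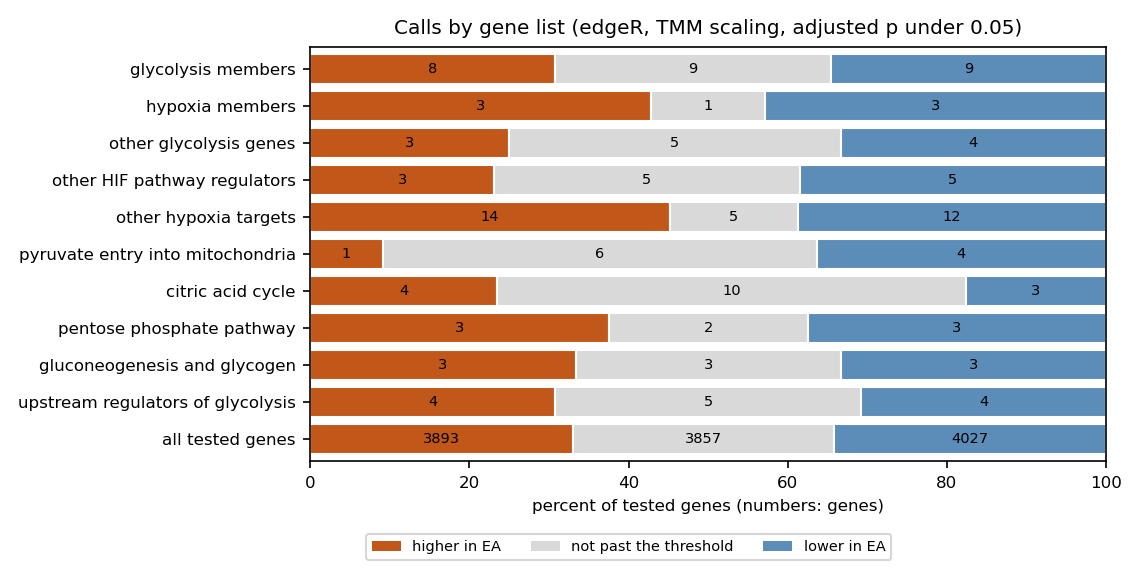
Percent of tested genes called higher, not past the threshold and lower in EA against control (edgeR, TMM scaling), for the glycolysis and hypoxia members, 8 lists of related genes and all tested genes; numbers in the bars are genes. Glycolysis members count 8 higher and 9 lower and hypoxia members 3 higher and 3 lower, beside 3893 and 4027 of all 11777 genes, and with library totals the glycolysis members count 2 higher and 18 lower.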

How the data were processed

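The deposited table gave, per gene, read counts and FPKM values for 4 EA and 4 control libraries. The authors made the read counts from mouse build GRCm39 with cutadapt 1.15 and HISAT2 2.0.5 named among the tools, per the submitters' processing notes. Which program counted reads, whether it used strand and which annotation release it read is not given in the sources used here. FPKM was also deposited by the authors, and recomputing 175192 such values from count, gene length and library total gave a largest relative deviation of 3.56e-14.

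Counts were fitted in R 4.3.3 with edgeR 4.0.16 (TMM factors, default count filter by group, robust quasi-likelihood F test, EA over control, no covariates). A gene was called at an adjusted p below 0.05 (Benjamini-Hochberg, 11777 genes). The biological coefficient of variation was 7.78%. Folds come from the fit, and each SE was taken as the absolute log2 fold change over the root of F. Of the 39 rows, 33 passed the count filter, and a member can pass it through 1 group. Ratios within a library used FPKM and exact permutation (scipy 1.17.1) where each gene had at least 10 reads per library on average in a group and none was at 0 reads in any library. Promoter windows came from a RefSeq table of build GRCm38.p6. Results were recomputed with RLE factors, upper-quartile factors and library totals, 2 other count filters, DESeq2 1.42.0, limma 3.58.1 on log2(FPKM + 1), an adjusted p under 0.01, a replicate block and leaving out each library. Libraries of a group were not identical, and all pairs differed beyond counting noise. The steps were tested on simulated data in which few genes changed, in random directions. That setting has no composition shift like the one here, so it cannot check the choice of scaling. Figures were drawn with matplotlib 3.10.9.

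The members, the related lists and the pairs were chosen with earlier results of these data known. Values in every library are given for the called members with the 8 largest rises and the 8 largest falls, members with a mean of at least 100 FPKM in a group and the 5 HIF regulators. From each related list up to 2 rising and 2 falling called genes are named by p, apart from a few not reported here.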

Additional observations from a re-analysis of the deposited data

Results flagged for a closer look

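In 5 of 90 groups of 4 libraries, 1 library stood apart from the other 3 by more than Dixon's 95% limit, and chance flags about 1 in 20. EA library 4 had 621.8 CPM of Eno1, and the other EA libraries had 595.2 to 598.0 CPM. The remaining flags fell on control library 4. It had 217.1 CPM of Gpi1, where the other controls had 247.5 to 251.0 CPM, and 4.69 CPM of Pdk2, where they had 8.30 to 8.77 CPM. Its FPKM ratio of Pdk4 to Pdk2 was 65.8, against 34.6 to 36.0 in the other controls. Its ratio of Pdk3 to Pdk2 was 12.9, against 6.03 to 6.44. These ratios share the low Pdk2 value. For Pdk1 to Pdk2, the groups did not overlap with or without that library.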

How the results depend on the processing

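Of 33 tested members, 15 kept their direction and their side of the threshold under every alternative, 8 changed sides on leaving out a library and 6 turned direction under a scaling and were called on at least 1 side of that turn. Library totals and limma on log2(FPKM + 1) gave 1940 and 1924 genes higher and 7196 and 7170 lower over all tested genes, and 2 and 2 glycolysis members higher and 18 and 18 lower. Upper-quartile factors called 14 glycolysis members lower. The log2 fold changes that turned, with library totals and with limma, were -0.34 and -0.32 for Hk1, -0.24 and -0.21 for Pfkp, -0.0063 and -0.0061 for Pgam1, -0.19 and -0.18 for Pkm, -0.15 and -0.16 for Pdk4, -0.14 and -0.13 for Egln2, -0.19 and -0.19 for Pcx, -0.0996 and -0.0950 for Mdh1 and -0.0977 and -0.0949 for G6pdx. Upper-quartile factors lie between TMM and library totals in their shift of the median, which was -0.17. RLE factors, DESeq2 and no filter left all 33 member calls as they were. With 1 added to each FPKM, the log2 ratio of Eno2 to Eno1 differed by -0.17. Without Pgk1 and Hif1a, the log2 ratio of summed enzymes to regulators differed by -0.40. 

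Leaving out each library, the glycolysis members called lower numbered 6 to 11, with 11 without control library 4 and 6 without control library 3. Pfkl lost its call without EA library 2 or control library 2 or 3, Pfkm in 6 of 8 cases, Pdk3 in 5, Pkm without EA library 1 or 3 and Egln2 without EA library 1. Same-numbered libraries did not deviate together (correlations -0.021 to 0.027), and not every library correlated best with its own number, so the numbers were not taken to pair them. A replicate block gave 3834 genes higher and 3960 lower and 8 glycolysis members on either side, and among members it moved the call of Pdk3 (edgeR adjusted p = 0.0567). Genes with few reads, such as Epas1, Egln3, Ankrd37 and Adm, are limited by depth.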
